A study of Zea mays with 9 samples.

Results

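The maize defence genes wip1, bx6 and prp2 were followed in the endosperm of 3 inbred lines, B73, ae wx and sh1. The members were all probe sets that the platform annotation, joined by gene identifier to the RefSeq gene table of the B73 assembly, gives the symbol or synonym wip1, bx6 or prp2. Probe sets are groups of oligonucleotides matched to a transcript, and the brightness of each group is summarised as its signal. The rule found 3 of the 979 genes named on the array, with 4 of the 17621 probe sets other than array controls: 1 for wip1 (gene identifier 542729), 2 for bx6 (541977) and 1 for prp2 (542195). The platform annotation ties both bx6 probe sets to the same transcript record, so they are repeated readings of 1 gene in the same RNA and not replicates of each other.

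Endosperm, which fills most of the kernel with starch and storage protein, was collected 15 days after pollination from field-grown plants, and each line gave 3 arrays that the labels call biological replicates. B73 is the inbred line behind the maize reference genome. The ae wx line is labelled by the amylose extender and waxy loci, which act in starch synthesis, and the sh1 line by shrunken1, a sucrose synthase locus. No alleles, parentage or shared background are given for the mutant lines, so a difference between lines cannot be assigned to the named loci. The labels also do not say how many ears or kernels entered a sample, and the spread between the arrays may therefore hold technical as well as biological variation.

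Plants defend their tissues partly with proteins that block the digestive enzymes of insects and with small toxic metabolites. The gene wip1 encodes a proteinase inhibitor of the Bowman-Birk type that was described in wounded maize seedlings. The gene bx6 encodes a dioxygenase that hydroxylates a glucosylated intermediate on the way to DIMBOA, the main benzoxazinoid of young maize, a pathway that starts from indole and is known best from seedlings. The gene prp2 is named for the pathogenesis-related proteins, a broad class of proteins that accumulate after infection.

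Median signal per array lay between 241 and 256. The 23 control probe sets with no maize target averaged between 42.5 and 53.0 per array, and a gene was read as above background on an array where its signal passed that mean. All 12 markers of starchy endosperm tested were above that level on every array. Their summed signal was 144917 to 149774 in B73, 122309 to 129898 in ae wx and 125384 to 129128 in sh1. These markers include wx1 and ae1, which name the ae wx line and differed there from B73 by −1.60 and 0.28 (log2). Replicates 2 and 3 of sh1 correlated at r = 0.998, above every other pair within a line, though the ae wx pairs reached 0.995 to 0.996. With the line mean taken out this pair still correlated at 0.41, against −0.86 to −0.24 for the other pairs within a line. Deviations from a line's own mean cancel out over its 3 arrays, so such coefficients lean negative. The 0.41 also reflects that replicate 1 of sh1 stood apart from this pair. The difference of wip1 between ae wx and sh1 is therefore also given with this pair counted as 1 sample. For wip1 in sh1 against B73 that setting is within the range given at the end, 3.09 to 3.95 (log2).

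Each of the 3 genes had its own pattern over the lines. Signal of wip1 was highest in sh1, bx6 was lowest in B73, and prp2 was lowest in ae wx. Of the 3 genes, 2 passed the test in each comparison of lines (limma, adjusted p under 0.05). That test called 53.4% of the 12414 probe sets tested in ae wx against B73, 55.9% in sh1 against B73 and 36.6% in ae wx against sh1, so 2 of 3 genes is near the background of these arrays. In ae wx against B73, bx6 was higher, as 29% of probe sets were, and prp2 was lower, as 24.3% were. In sh1 against B73, wip1 and bx6 were higher, as 30.4% were, and no member was among the 25.4% that were lower. In ae wx against sh1, wip1 and prp2 were lower, as 18.8% were, and no member was among the 17.8% that were higher. Calls with a change of at least 2-fold were fewer. They took 12.8% of probe sets in ae wx against B73, where bx6 was among them, 14.2% in sh1 against B73, with wip1 and bx6, and 8.22% in ae wx against sh1, with wip1.

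**Figure D1:**
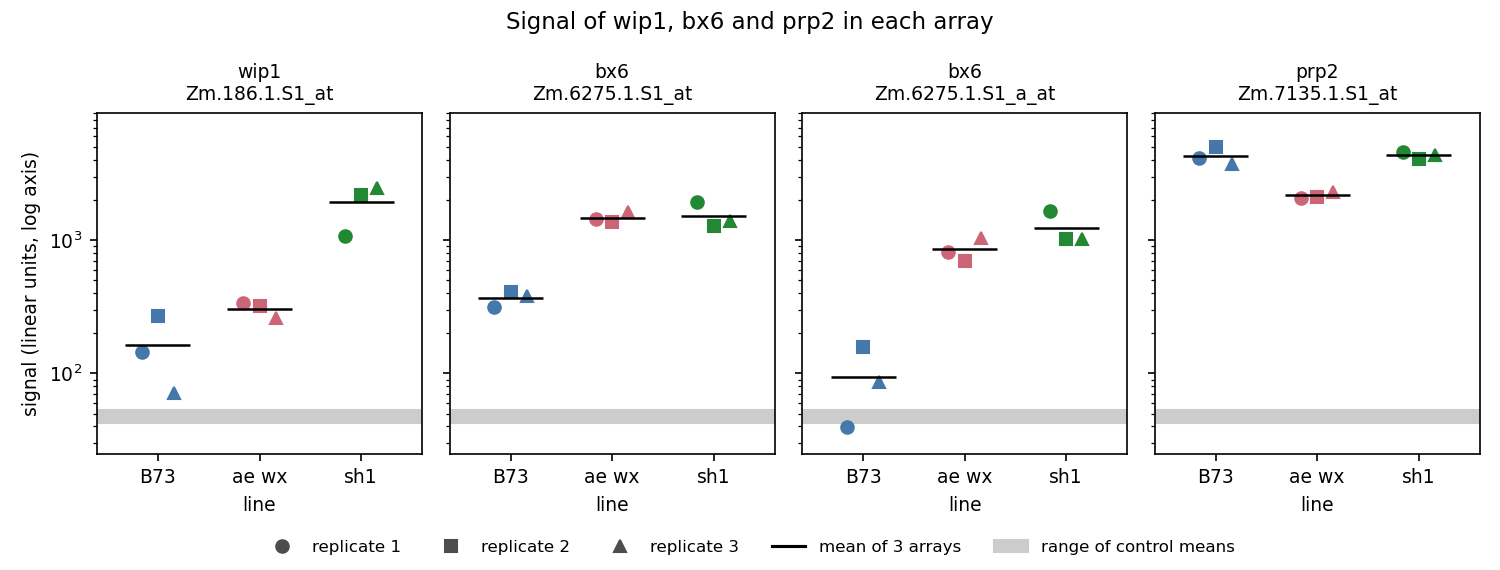
Signal (linear units on a log axis) of the 4 probe sets in each of the 9 arrays, by line. Symbols give the replicate, black lines the mean of 3 arrays, and the grey band the range of the array controls' mean, 42.5 to 53.0. The sh1 arrays of wip1, the B73 arrays of both bx6 probe sets and the ae wx arrays of prp2 stand apart from the other lines.

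The wound-induced inhibitor gene wip1 read 144.9, 270.2 and 70.9 in B73 replicates 1, 2 and 3. In ae wx it read 337.7, 323.1 and 260.0, and in sh1 it read 1084, 2200.4 and 2478. Every sh1 array lay above every array of the other lines, and the highest B73 array passed the lowest ae wx array, so those lines overlapped. The mean was 162 ± 100.7 for B73, 307 ± 41.3 for ae wx and 1921 ± 738 for sh1 (SD, n = 3 each).

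Signal of wip1 was 11.5-fold higher in sh1 than in B73. On the log2(signal + 16) scale used for all differences here, which understates changes of dim genes, this is 3.52 ± 0.41 (SE, limma adjusted p = 6.37e-05), with a 95% interval from 2.61 to 4.44. Of all probe sets tested, 99.01% differed less between these lines, whatever the direction. Against ae wx the sh1 signal was 5.68-fold higher (−2.51 ± 0.41 for ae wx minus sh1, adjusted p = 0.000985). With sh1 replicates 2 and 3 counted as 1 sample, ae wx minus sh1 was −2.32 (adjusted p = 0.00523). In bulk tissue such as this, more cells of a type that expresses a gene and more RNA per cell cannot be told apart.

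Between ae wx and B73, wip1 was not called. The difference was 1.02 ± 0.41 (SE, adjusted p = 0.0589), and its 95% interval ran from 0.10 to 1.93, so the data leave room for nearly no difference and for a large one. This value rested on single arrays. It was 1.44 without B73 replicate 2 (adjusted p = 0.0103) and 0.58 without B73 replicate 3 (adjusted p = 0.176). Without sh1 replicate 1, which enters only the shared spread, adjusted p was 0.0387.

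The arrays of 1 line disagreed more for wip1 than for most genes. In B73 its highest array was 3.81 times its lowest, and in sh1 2.29 times. The SD of log2 values was 0.86 in B73, where the median probe set had 0.18, and 0.64 in sh1, where the median was 0.083. In B73 and sh1 over 99% of the probe sets tested had a smaller SD than wip1. The ae wx arrays lay closer together (SD 0.19), though 94.2% of probe sets had a smaller SD there too. The lowest B73 array was only 1.41 times the mean of its controls and below its brightest control, so its exact level there is poorly determined.

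The benzoxazinoid gene bx6 gave low signal in B73 and high signal in both mutant lines. Its brighter probe set read 313.8, 410.0 and 381 in B73. It read 1442, 1366 and 1622 in ae wx and 1920.2, 1269 and 1396 in sh1. No B73 array reached the lowest array of either mutant line, and the ae wx and sh1 arrays overlapped. The mean was 368 ± 49.4 for B73, 1477 ± 132 for ae wx and 1528 ± 345 for sh1 (SD, n = 3 each).

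The ae wx line exceeded B73 by 1.96 ± 0.16 (log2, SE, limma adjusted p = 6.55e-06), which is 3.90-fold. The sh1 line exceeded B73 by 1.99 ± 0.16 (adjusted p = 5.15e-06), which is 3.98-fold. Both comparisons use the same B73 arrays, so they are not independent of each other. Between the mutant lines the difference was −0.030 ± 0.16 (ae wx minus sh1, adjusted p = 0.905). Its 95% interval ran from −0.39 to 0.33, so a moderate difference in either direction is not excluded.

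The second bx6 probe set gave the same direction and a larger change. It read 39.8, 158.5 and 85.9 in B73, where replicate 1 was not above the mean of its controls. Its signal was 822, 698 and 1040.3 in ae wx and 1641, 1016 and 1017 in sh1. The differences from B73 were 3.11 ± 0.36 in ae wx (adjusted p = 7.22e-05) and 3.60 ± 0.36 in sh1 (adjusted p = 2.3e-05), against values near 2 from the brighter probe set. Since 1 of the 3 B73 arrays was not above background for it, the larger values have a poorly determined base. Between ae wx and sh1 this probe set gave −0.49 (adjusted p = 0.321). Probe sequences were not used, so the specificity of both bx6 probe sets, and their match to the transcripts of each line, was not tested.

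Across the 9 arrays the bx6 probe sets correlated at r = 0.98, and after each line's mean was taken out they still did so at 0.84. Both were highest in sh1 replicate 1 and lowest in B73 replicate 1. The correlation describes 2 readings of the same RNA on the same arrays.

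The pathogenesis-related gene prp2 was bright in every line and lowest in ae wx. It read 4159, 4974 and 3713 in B73 and 4619, 4053 and 4386 in sh1. In ae wx it read 2083, 2119.9 and 2309. The B73 and sh1 arrays were interleaved, and no ae wx array came near them. The mean was 4282 ± 639 for B73, 2171 ± 121 for ae wx and 4353 ± 284 for sh1 (SD, n = 3 each).

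The ae wx line was 1.95-fold below B73 (−0.97 ± 0.11, log2, SE, limma adjusted p = 6.18e-05) and 1.997-fold below sh1 (−0.998 ± 0.11, adjusted p = 7.4e-05). Both comparisons use the same ae wx arrays. Between sh1 and B73 the difference was 0.032 ± 0.11 (adjusted p = 0.82), with a 95% interval from −0.21 to 0.28. The replicates of prp2 lay as close together as those of a typical probe set. Its SD of log2 values was 0.21 in B73, 0.079 for the ae wx arrays and 0.094 for sh1, and between 55.7% and 60.6% of probe sets had a smaller one.

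**Figure D2:**
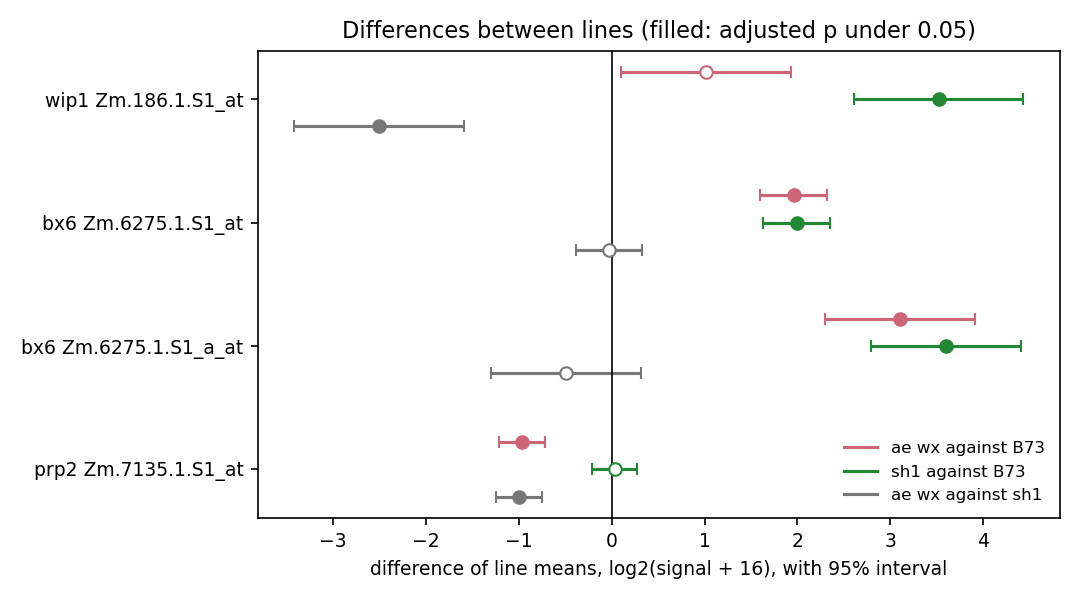
Differences between line means for the 4 probe sets, on the log2(signal + 16) scale, with 95% intervals from the fit. Filled points passed adjusted p under 0.05 and open points did not. The interval of wip1 in ae wx against B73 runs from 0.10 to 1.93, and those of bx6 between the mutant lines and of prp2 between sh1 and B73 span 0.

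Ranges of arrays separated for 2 of the 3 genes in each comparison. By that measure 60.1% of probe sets separated in ae wx against B73, 60.9% in sh1 against B73 and 62.6% in ae wx against sh1. For wip1 sh1 was highest, and the difference between B73 and ae wx was not settled. For bx6 B73 was lowest, and for prp2 ae wx was lowest, while the order of the other lines was not resolved.

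The named genes whose levels followed each member most closely over the 9 arrays were looked up among 745 named genes. For wip1 they were frk1, a fructokinase gene (r = 0.981), CesA-2, a cellulose synthase gene (0.977), and rop6, which encodes a small GTPase (0.959). For bx6 they were GRF14, a gene of the 14-3-3 family (0.991), the cysteine protease gene ccp2 (0.985) and pdi5 of the protein disulfide isomerases (0.984). For prp2 they were PIS (0.988), the superoxide dismutase gene Sod4A (0.965) and the delta zein gene dzs18 (0.961). These coefficients describe 9 points that fall into 3 lines on shared arrays, so most of each value is the line pattern itself.

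Of these genes, GRF14, ccp2, pdi5, PIS and CesA-2 repeated the calls of their member in every comparison of lines. The others, rop6, frk1, Sod4A and dzs18, did not, and the sizes of change differed. In sh1, rop6 read 1425, 1621 and 1601 against 146.2, 206 and 169 in B73. In the same arrays frk1 read 3695, 3791 and 3945 against 2193, 2284 and 1840.2. Both were also called higher in ae wx than in B73 (0.80 for rop6, limma adjusted p = 0.000467, and 0.29 for frk1, adjusted p = 0.0224), where wip1 was not called. For ccp2, which followed bx6, B73 arrays read 284, 295 and 311 and ae wx arrays 1584, 1526 and 1802. For Sod4A, which followed prp2, ae wx arrays read 120.5, 139 and 137, B73 arrays 693, 839 and 695 and sh1 arrays 996, 1191 and 1050.3. Between sh1 and B73, where prp2 differed by 0.032, Sod4A was higher in sh1 by 0.53 (adjusted p = 0.00238) and dzs18 by 0.13 (adjusted p = 0.0296). That call of dzs18 ended without B73 replicate 3 or any 1 of the sh1 arrays (adjusted p up to 0.099). Its other probe sets had means of 21002, 20869 and 1414 in B73 and, in the same order, 23002, 22483 and 753 in sh1.

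With the line means taken out, other genes came closest to each member. They were dxr (0.979), fdx3 (0.975) and homeobox2 (0.972) for wip1, HMG I/Y-2 (0.962), FDX6 (0.887) and sfp1 (0.884) for bx6, and lpa1 (0.977), rop7 (0.970) and expB8 (0.969) for prp2. As the highest of 745 coefficients over 9 arrays, these values can be high without any link between the genes. No gene was on both lists of a member. Among the members that step left coefficients of −0.40 for wip1 and the brighter bx6 probe set, 0.46 for wip1 and prp2, and 0.54 for bx6 and prp2.

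Few other genes of benzoxazinoid synthesis are named on the array. In the order of genes in the assembly Zm-B73-REFERENCE-NAM-5.0, bx3, bx4, bx5, bx8, bx1 and bx2 lie 66 to 74 genes from bx6 on its chromosome, and of these only bx1 has a named probe set. Of 7 listed genes with a probe set, 4 were bright enough to be tested. The gene bx1, whose enzyme releases the indole that enters the pathway, read 66.0 to 104 over all 9 arrays and was not tested. The beta-glucosidase genes glu1 and glu2, whose enzymes free the toxic aglycones, were also too dim, with glu2 above background on none of the 9 arrays.

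No other bx gene was tested. The tested genes of the list beside bx6 were igl1, TSB1 and TSB2, and these did not share its pattern. The gene igl1, whose enzyme also makes free indole, read 1118, 987 and 958 in B73, 1276, 1305 and 1240.05 in ae wx and 719, 725 and 765 in sh1. It was lower in sh1 than in B73 (−0.46 ± 0.09, adjusted p = 0.00167) and than in ae wx. Its rise in ae wx over B73 (0.32 ± 0.09, adjusted p = 0.013) was not called without ae wx replicate 2 (adjusted p = 0.0527). The tryptophan synthase gene TSB1 was lower in both mutant lines than in B73, by −0.43 ± 0.12 in ae wx and −0.62 ± 0.12 in sh1. The related TSB2 was lower in sh1 than in B73 (−0.45, adjusted p = 0.0167, or 0.067 at most without 1 sh1 array).

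In all, 2 of the 4 tested genes were higher and 1 was lower in ae wx than in B73, bx6 included. In sh1 against B73, 1 was higher and 3 were lower, and in ae wx against sh1, 2 were higher and none lower (limma, adjusted p under 0.05). Of all probe sets tested, 29%, 30.4% and 17.8% were higher in these comparisons, in that order, and 24.3%, 25.4% and 18.8% were lower. The median difference of the list was 0.13, −0.46 and 0.29 in these comparisons, against 0.038, 0.037 and 0.0036 over all probe sets tested. These counts and medians describe bx6 with igl1, TSB1 and TSB2, and not the bx genes as a set. The call of TSB2 in ae wx against sh1 (adjusted p = 0.0469) ended without any 1 of the ae wx arrays or sh1 replicate 2 or 3.

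Oxylipin synthesis makes jasmonate, the hormone that commonly precedes wound responses in leaves. Of 10 listed genes on the array 7 were tested. In ae wx 4 were higher than in B73 and 1 was lower, and in sh1 5 were higher and 1 was lower. Over all probe sets tested 29% were higher and 24.3% lower in ae wx, and 30.4% and 25.4% in sh1. The median difference of the list was 0.59 and 0.43, against 0.038 and 0.037 over all probe sets. The allene oxide synthase gene aos, which opens the jasmonate branch, differed most. It read 141, 133 and 164 in B73, 893, 753 and 839.8 in ae wx and 753, 678 and 771 in sh1.

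The differences of aos from B73 were 2.38 ± 0.10 in ae wx (limma adjusted p = 6.51e-08) and 2.21 ± 0.10 in sh1 (9.82e-08), and 0.17 between the mutant lines (adjusted p = 0.233). Its order of lines was thus that of bx6, low in B73 and alike within error in the mutant lines. The oxophytodienoate reductase genes opr5, opr7 and opr8 were higher than B73 in ae wx (1.27, 0.70 and 0.59) and in sh1 (0.61, 0.43 and 0.48). A second probe set of opr8 gave 0.061 and −0.078, neither of which was called. The allene oxide cyclase gene aoc1, which acts directly after aos, was lower in ae wx (−1.01 ± 0.09) and in sh1 (−0.61 ± 0.09), while its other probe set gave −0.067 (adjusted p = 0.688) and 0.071 (adjusted p = 0.666). The lipoxygenase genes lox1 and lox3, of the first step, were too dim to be tested.

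Between ae wx and sh1, 2 of the 7 tested oxylipin genes were higher and 1 was lower, against 17.8% and 18.8% of all probe sets tested. Those higher in ae wx were opr5 (0.67 ± 0.11) and opr7 (0.27 ± 0.08), the latter not called without 1 of ae wx replicates 1 and 2 or sh1 replicates 2 and 3 (adjusted p up to 0.0716). The lower gene was aoc1 (−0.40 ± 0.09). Its other probe set was almost as bright (mean log2 10.7966 against 10.7979). In that probe set the arrays overlapped, at 1536 to 2009 in ae wx and 1704 to 2089 in sh1.

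**Figure D3:**
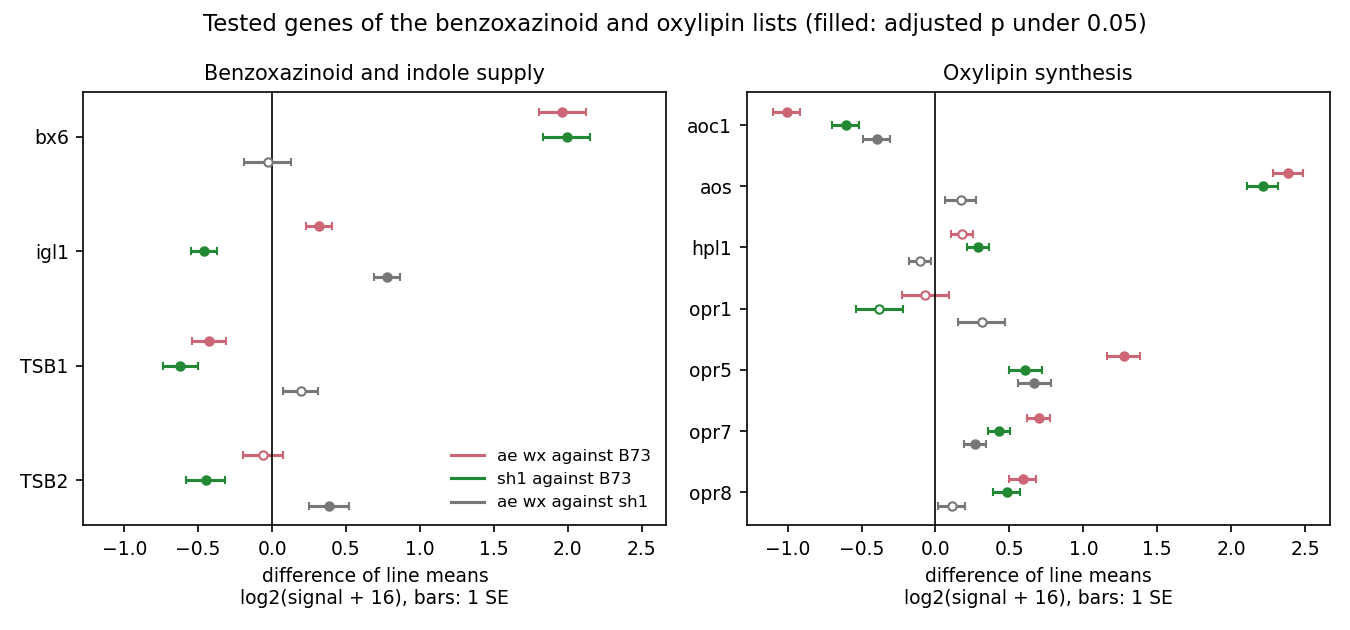
Differences between line means, on the log2(signal + 16) scale with bars of 1 SE, for the 4 tested genes of the benzoxazinoid list and the 7 of the oxylipin list. Filled points passed adjusted p under 0.05. The gene aos lies beside bx6 in the comparisons with B73 (2.38 and 2.21 against 1.96 and 1.99), and igl1 and TSB1 do not.

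The 5 proteinase inhibitor genes tested were wip1 and 4 genes of cystatins, which inhibit cysteine proteases. The cystatin genes psei1 (−2.80 ± 0.13) and cpi2 (−1.99 ± 0.13) were lower in sh1 than in B73 (limma adjusted p = 8.35e-08 and 9.74e-07), where wip1 was higher. The other cystatin genes were not called there, with 0.20 for cc7 (adjusted p = 0.08) and −0.31 for cc3 (adjusted p = 0.0788). In ae wx against B73 3 genes of this list were higher and 1 was lower, against 29% and 24.3% of all probe sets tested. The lower gene, cc3 (−0.43 ± 0.14), was not called without any 1 of 4 arrays, B73 replicates 1 and 2 and ae wx replicates 1 and 2. Probe sets of the cystatin genes share much of their names and may share sequence, and their specificity was not tested.

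Of 8 genes for pathogenesis-related and antimicrobial proteins 3 were tested, prp2, Zlp and bap2. The other 5, among them prp4 (54.4 to 73.9 over the arrays), pr5 and rip2, stayed below the filter on low signal. Zlp, a zeamatin-like antifungal protein gene, read 1894, 2189 and 1108 in B73, 1079, 990.4 and 851 in ae wx and 874, 1023 and 996 in sh1. It was lower than B73 in ae wx (−0.77 ± 0.22, adjusted p = 0.0136) and in sh1 (−0.78 ± 0.22, adjusted p = 0.0121), unlike prp2, which was not called in sh1. The call in ae wx ended without ae wx replicate 3 (adjusted p = 0.0549). A second probe set of Zlp gave −2.23 in ae wx (adjusted p = 0.00776) and −0.96 in sh1, where it was not called (adjusted p = 0.171). The gene bap2, of an antifungal protein of the basal transfer layer, read 90.1, 89.4 and 40.9 in B73, 1080.2, 264 and 254 in ae wx and 662, 299 and 241 in sh1. It was higher in ae wx by 2.34 ± 0.54 (adjusted p = 0.00512), or 1.68 without ae wx replicate 1, and B73 replicate 3 was not above background for it.

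Outside these groups, the terpene synthase list had 1 tested gene, an1 of gibberellin precursor synthesis, which was higher in ae wx than in B73 (1.58 ± 0.17, adjusted p = 3.75e-05). The lignin gene BM1, a cinnamyl alcohol dehydrogenase, was lower than B73 in both mutant lines (−0.89 and −0.58). PAL1, which opens phenylpropanoid synthesis, was lower in sh1 than in B73 (−0.70 ± 0.11, adjusted p = 0.000381) and was not called in ae wx (−0.073, adjusted p = 0.591).

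Levels of wip1 and bx6 also differed between the arrays of the sh1 line, in opposite directions. In sh1 replicate 1, wip1 was 1.10 lower (log2) than the mean of the other sh1 arrays, while the bx6 probe sets were 0.52 and 0.68 higher and prp2 was 0.13 higher. All 9 tested genes of a list of heat shock, glutathione transferase and alternative oxidase genes, drawn up with their behaviour in these data known, were below both other sh1 arrays there, by 0.43 to 2.56. For example, hsp22 read 3103 in replicate 1 and 8259 and 8667 in the others, and gst42 read 1289.6, 2906 and 2885. For this list and the marker lists, in sh1 and in B73, the share of all probe sets outside both other arrays was not counted. Replicates 2 and 3 of sh1 were much alike (r = 0.998), so replicate 1 could lie outside both for many probe sets.

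Markers of the basal transfer layer stood the other way. Their 6 tested genes summed to 4187 in sh1 replicate 1 and to 2680 and 2436 in the others, and 5 of the 6 were highest in replicate 1, meg2 and betl2 (the gene also named bap2) by 1.15 and 1.25. In B73 the same sum ran from 1199.6 to 1347 and in ae wx from 1999 to 5099. The highest sum was that of ae wx replicate 1, where both bx6 probe sets lay between the other ae wx arrays. The difference of wip1 between sh1 and B73 was 3.89 without sh1 replicate 1 and that of bx6 was 1.82. The part of these genes and markers in the results on wip1 and bx6 was not tested.

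**Figure D4:**
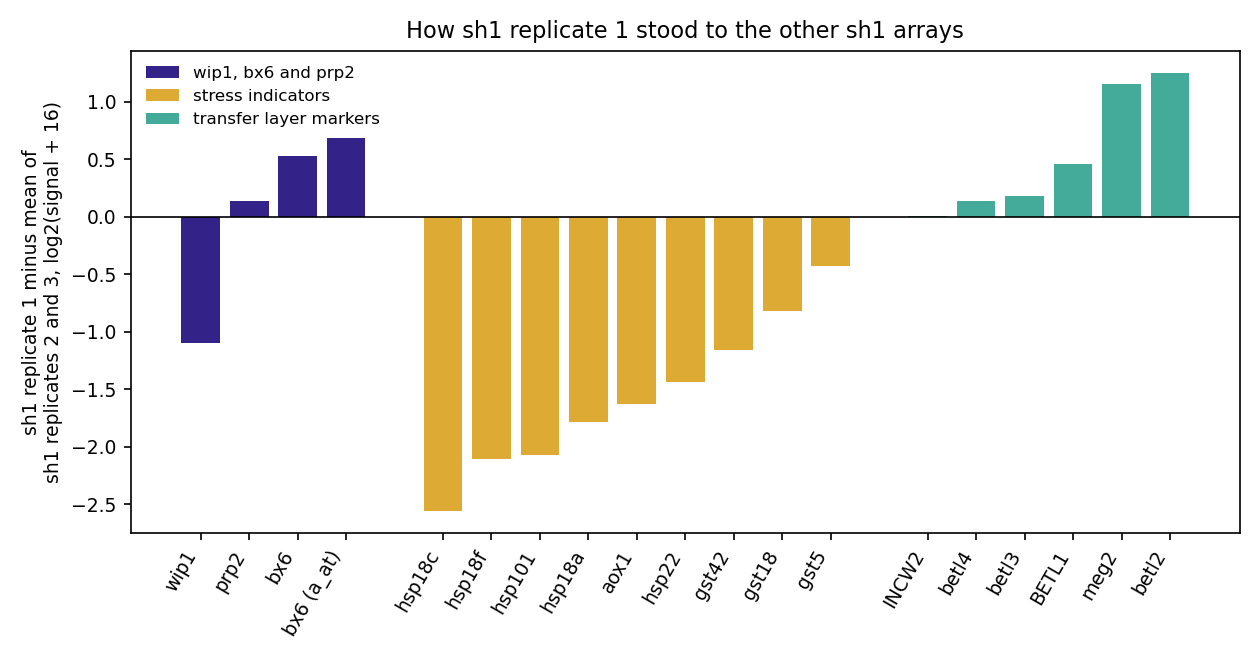
Difference of sh1 replicate 1 from the mean of sh1 replicates 2 and 3, on the log2(signal + 16) scale, for the 4 probe sets (the dimmer one of bx6 marked a_at), 9 stress genes and 6 transfer layer markers. The bars of wip1 (−1.10) and the stress genes (−2.56 to −0.43) are negative, and those of bx6 (0.52 and 0.68) and the transfer layer markers are positive. The stress genes were listed with their behaviour in these data known, and a link of either list to wip1 or bx6 was not tested. In B73 replicate 3, which is not drawn, wip1 was lower (−1.30), and 6 of 9 stress genes were above both other B73 arrays. The bx6 probe sets differed there by 0.083 and 0.046, and the transfer layer markers by a median of −0.47. In ae wx replicate 1, also not drawn, these markers summed to 5099, against 2122 and 1999 in the other ae wx arrays. Both bx6 probe sets lay between the other ae wx arrays there.

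In B73 it was replicate 3 that stood apart. There wip1 was 1.30 lower than the mean of the other B73 arrays and prp2 was 0.29 lower, while the bx6 probe sets differed by 0.083 and 0.046. Among the stress genes, 6 of 9 were above both other B73 arrays in this array and 2 were below both (median 0.31), with hsp101 0.95 and hsp22 0.87 higher. Of the transfer layer markers 4 of 6 were below both and 2 were above both (median −0.47). Markers of embryo and aleurone, kernel parts next to the starchy endosperm, were below both other B73 arrays for 6 of 7 tested genes, with a sum of 12873 against 25982 and 28541. In ae wx the sum was 8011 to 8693 and in sh1 10859 to 11982. Without B73 replicate 3, sh1 exceeded B73 by 3.09 for wip1, and ae wx was below B73 by −1.06 for prp2. Green tissue markers were mostly dim, with 3 of 8 genes tested, and the 1 marker of the embryo-surrounding region was not bright enough to be tested. The part of these markers in the results was not tested.

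The ratio of 3′ to 5′ signal of control transcripts, which bears on RNA quality, also differed between lines. For actin it was −0.079, 0.056 and 0.54 (log2) in the B73 arrays, 0.42 to 0.68 in ae wx and 0.49 to 0.75 in sh1. For glyceraldehyde phosphate dehydrogenase it was 0.44 to 0.50 in sh1 and at most 0.066 in the other lines. The control named Cyph went the other way, with 0.23 to 0.54 in B73, 0.014 to 0.096 in ae wx and −0.033 to 0.052 in sh1. The control named ef1a read 1.07 to 1.21 in B73, 1.38 to 1.57 in ae wx and 1.24 to 1.33 in sh1. The controls thus did not share one direction between lines. RNA quality and line cannot be told apart in the comparisons between lines.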

How the data were processed

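RNA of 9 endosperm samples was read on 1 Affymetrix array each. For every array the deposited values are linear intensities of its probe sets, used with no further scaling. The submitters' processing notes list GCOS 1.4 without saying what it did. Neither the summary method nor the scaling target is given in the sources used here. Trimmed means (2% at each end) differed between arrays by 9.72%, just under the 10% set for quantile normalization. They were ordered by line, with 623 to 651 in B73, 655 to 661 in ae wx and 667 to 684 in sh1.

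Names came from the platform annotation (1452 probe sets with 1 symbol, 1 with several), of which 1377 matched the RefSeq gene table by gene identifier. The brightest probe set stood for a gene, and homonyms of other function were removed by hand. Probe sets were kept at a signal of at least 20% of the array's trimmed mean in at least 3 arrays, which left 12414. All 4 probe sets of the members passed, and the dimmer bx6 probe set passed through the mutant lines and 1 B73 array.

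Lines were compared with limma 3.58.1 (R 4.3.3) on the log2(signal + 16) scale, in a fit of 1 mean per line to all 9 arrays with an intensity trend. Its two-sided p-values were adjusted by Benjamini-Hochberg over all 12414 kept. The fit was tested on simulated data. Alternatives changed the pseudocount, filter, scaling, arrays used, replicate block, variance model and each replicate. Genes were named by this rule: all members, up to 4 called genes per list and comparison with the largest difference (the 2 brightest where none was called), and the 3 closest genes by each measure of likeness. Single untested genes and cell type markers were named after their values were seen. The members and lists were chosen with earlier results of these data known. The number of arrays limits precision. No sequences are shown, since probe and gene sequences were not used here.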

Additional observations from a re-analysis of the deposited data

How the results depend on the processing

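The members' differences were computed under 21 other settings each, plus the second probe set for bx6. All settings kept direction and call for wip1 in sh1 against B73 (3.09 to 3.95, log2) and in ae wx against sh1 (−2.87 to −2.28), for bx6 against B73 in both mutant lines (1.82 at the lowest), and for prp2 in ae wx against B73 (−1.06 to −0.85) and against sh1 (−1.05 to −0.93). For wip1 in ae wx against B73, adjusted p ran from 0.0103 to 0.176. Leaving out 1 array gave 0.58 to 1.44, and the difference was called without B73 replicate 2 or sh1 replicate 1. Both uncalled differences near 0 changed sign, which leaves their direction unsettled. For bx6 in ae wx against sh1 they were 0.037 with quantile normalization and 0.016 with median centring, −0.15 to 0.14 without 1 array. For prp2 in sh1 against B73 they were −0.093 and −0.038, and −0.065 to 0.14. Without B73 replicate 3 and sh1 replicate 1 together, an alternative chosen after seeing the data, these were 0.14 and −0.11. These scalings shifted the median of all probe sets by −0.07 to 0.046. Counts of called probe sets stayed within 1.5 times of those reported, though in sh1 against B73 the lower calls came to outnumber the higher ones, with quantile normalization (3798 and 3224) and with median centring (3780 and 3217). Counts of called list genes moved by at most 2. Over all probe sets, same-numbered replicates did not deviate together (r from −0.23 to 0.14), which cannot exclude a shared block for some genes. With the replicate block bx6 in sh1 against B73 was 1.99, and no call of a member changed. Signal near the controls limits the B73 values of wip1 and of the second bx6 probe set.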
